A study of Mus musculus with 4 samples.

Results

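The T-cell receptor (TCR) constant region genes were followed in single thymocytes of FVB/N mice. The 7 genes were taken by name, not by their values, and are Trac (alpha chain), Trbc1 and Trbc2 (beta chain), Trdc (delta chain) and Tcrg-C1, Tcrg-C2 and Tcrg-C4 (gamma chain), out of 31053 genes counted. Transcripts were counted with droplet-based 3′ sequencing as unique molecular identifiers (UMIs), each standing for 1 captured molecule, in 4 thymus libraries of 1 animal each. The WT library came from a wild type mouse aged 6 weeks, and the preleukemic library from a Tal1/Lmo2 transgenic mouse aged 6 weeks. The libraries T-ALL#1 and T-ALL#2 came from Tal1/Lmo2 mice aged 3 months with acute leukemia of T lymphoblasts (T-ALL). The leukemic mice were also the older ones, and age cannot be told apart from leukemia here. Both transgenes are driven by the proximal Lck promoter, which is active in developing T cells, and all 4 thymi were depleted of red cells and sorted for viable singlets. Cells with more than 500 genes and less than 10% mitochondrial UMIs were kept, in T-ALL#2 among barcodes with at least 3416 UMIs. These numbered 4220 for WT, 5576 for the preleukemic thymus, 5773 for T-ALL#1 and 1975 for T-ALL#2, or 17544 in all.

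A T cell carries either an alpha and a beta chain or a gamma and a delta chain, together with the CD3 subunits. Each chain joins a variable region, which is assembled by cutting and joining gene segments during thymic development, to a constant region from the genes described here. The delta genes lie inside the alpha locus, so joining of an alpha variable segment removes the delta genes from that chromosome. Beta, gamma and delta genes are rearranged at the stage without the coreceptors CD4 and CD8, at which thymocytes carry Il2ra (CD25), and alpha genes are rearranged later, as the coreceptors appear. Trbc1 and Trbc2 are alternative constant regions of the beta chain, and a rearranged allele is read into one of them. Constant regions can also be transcribed from alleles that are not rearranged, so a UMI of a constant region does not show a complete receptor chain.

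Sequence decides which of these genes can be told apart in such data. Positions are those of GENCODE M21 on GRCm38 (mm10), which held the identifiers of all 7 genes. Trdc (chr14:54142851-54148868, plus strand) ends 71652 bases before Trac (chr14:54220521-54224206, plus strand). Trbc1 (chr6:41538218-41539881) and Trbc2 (chr6:41546730-41548352) lie 6848 bases apart on the plus strand. Tcrg-C1 (chr13:19214103-19217024), Tcrg-C2 (chr13:19304649-19307551) and Tcrg-C4 (chr13:19344558-19352756) lie in 1 cluster, with Tcrg-C2 on the minus strand. The first exons of Trbc1 and Trbc2 differ at 1 of 375 bases. Their exons 3, which code for the part next to the membrane, differ at 15 of 107 bases and are printed because the use of Trbc1 against Trbc2 is the clearest contrast below. Capitals mark the bases at which they differ, at chr6:41539229-41539335 for Trbc1 and chr6:41547772-41547878 for Trbc2.
Trbc1: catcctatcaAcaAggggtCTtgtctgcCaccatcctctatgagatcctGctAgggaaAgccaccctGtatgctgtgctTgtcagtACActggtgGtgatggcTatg
Trbc2: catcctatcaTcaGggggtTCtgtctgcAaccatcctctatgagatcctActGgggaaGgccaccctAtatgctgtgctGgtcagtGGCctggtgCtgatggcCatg

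Of the gamma genes, Tcrg-C1 and Tcrg-C2 are near-identical at their 3′ ends and Tcrg-C4 is not. The coding part of the last exon, of 140 bases in each, is printed to show this. It lies at chr13:19216476-19216615 for Tcrg-C1, chr13:19305063-19305202 (minus strand) for Tcrg-C2 and chr13:19352201-19352340 for Tcrg-C4. Capitals in Tcrg-C1 mark bases at which either of the others differs, and capitals in the other lines mark differences from Tcrg-C1, 4 for Tcrg-C2 and 44 for Tcrg-C4.
Tcrg-C1: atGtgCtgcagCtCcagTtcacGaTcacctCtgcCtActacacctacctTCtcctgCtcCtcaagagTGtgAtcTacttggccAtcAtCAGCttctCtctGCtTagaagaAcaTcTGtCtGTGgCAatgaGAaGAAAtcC
Tcrg-C2: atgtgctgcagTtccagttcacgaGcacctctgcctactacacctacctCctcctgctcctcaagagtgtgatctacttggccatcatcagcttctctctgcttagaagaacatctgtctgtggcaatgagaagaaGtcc
Tcrg-C4: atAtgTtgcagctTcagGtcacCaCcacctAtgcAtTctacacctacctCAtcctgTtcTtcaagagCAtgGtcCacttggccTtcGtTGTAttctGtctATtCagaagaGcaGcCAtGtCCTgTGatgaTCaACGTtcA

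Among windows of 50 bases over the last 400 bases of each transcript, 23.4% of those of Tcrg-C1 were also found in Tcrg-C2 and 21.9% of those of Tcrg-C2 in Tcrg-C1. For Trbc2, 11.7% were found in Trbc1, while 0% of those of Trbc1, Trac, Trdc and Tcrg-C4 were found in another member. The split of UMIs between Tcrg-C1 and Tcrg-C2 is therefore less certain than that between Trbc1 and Trbc2, and the 3 gamma genes are mostly described together.

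The kept cells held 24042062 UMIs for WT, 40851235 for the preleukemic thymus, 70745712 for T-ALL#1 and 36236569 for T-ALL#2, with medians of 3800.5, 4888, 8742 and 17581 UMIs per cell. All 6 T lineage markers were detected in every library, at summed levels between 2622 and 4306 CPM, which are UMIs scaled to an equal library total. Markers of NK and innate T cells, 5 genes, summed to 70.0 CPM in WT and 66.0 CPM in the preleukemic library but to 8.04 and 1.66 CPM in the leukemias, and 4 erythroid markers to 83.1 CPM in WT and at most 0.221 CPM elsewhere. Their part in the results was not tested. The oncogene Tal1 had 0 UMIs in WT and 410, 68.3 and 234 CPM in the transgenic libraries in the order preleukemic, T-ALL#1, T-ALL#2. Lmo2, the other transgene, was at 0.915 CPM in WT and at 4.48, 0.368 and 0.276 CPM in that order, below WT in both leukemias. Its counts therefore do not show the Lmo2 transgene in the leukemias. The sex-linked genes went against the labelled sex in the WT and preleukemic libraries, which both held Xist (1380 and 1869 CPM) and next to no Y-linked UMIs, so those labels are in doubt. T-ALL#1 also held Xist (1932 CPM), while T-ALL#2 held Y-linked UMIs (122 CPM) and next to no Xist (0.0828 CPM). By these genes T-ALL#2 differs in sex from the other libraries, and sex cannot be told apart from that animal in any comparison with it. Because the libraries are single animals, the 95% intervals below cover counting error alone, and no p-value is given between libraries. To compare shares of cells across depths, each cell was thinned at random to 2000 UMIs, which left out 991 shallower cells for WT, 350 for the preleukemic thymus, 94 for T-ALL#1 and 0 for T-ALL#2.

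Preleukemic thymus carried far more gamma and delta transcripts than WT and fewer alpha transcripts. Trdc stood at 206 CPM (95% Poisson interval 200 to 212) in WT and 1149 CPM (1139 to 1160) in the preleukemic library, a 5.58-fold difference (5.42 to 5.75). The gamma genes Tcrg-C1, Tcrg-C2 and Tcrg-C4 were at 30.9, 42.8 and 24.7 CPM in WT and at 252, 451 and 257 CPM in the preleukemic library. These are differences of 8.16-fold, 10.5-fold and 10.4-fold. Trac went the other way, from 636 CPM (626 to 646) in WT to 178 CPM (174 to 182), and was 3.57-fold lower. The beta genes stayed within the 2-fold limit, with Trbc1 at 2671 and 2995 CPM and Trbc2 at 4706 and 3167 CPM. Of the 7 genes, 4 were at least 2-fold higher in the preleukemic library and 1 was at least 2-fold lower, where 4.46% and 4.88% of the 8417 genes with at least 10 CPM in 1 of the libraries were. The median log2 ratio of the 7 genes was 2.48, against -0.03 over all those genes. Gamma and delta UMIs together made up 3.66% of the UMIs of the 7 genes in WT and 24.96% in the preleukemic library. With the mean of CPM over cells, which weights cells equally, the log2 ratio of Trdc was 3.76 in place of 2.48, and those of Tcrg-C1, Tcrg-C2 and Tcrg-C4 were 4.09, 4.36 and 4.36 in place of 3.03, 3.40 and 3.38. In sums over cells such as these, fewer cells with a transcript and less transcript per cell cannot be told apart, and shares of cells are given below.

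**Figure D1:**
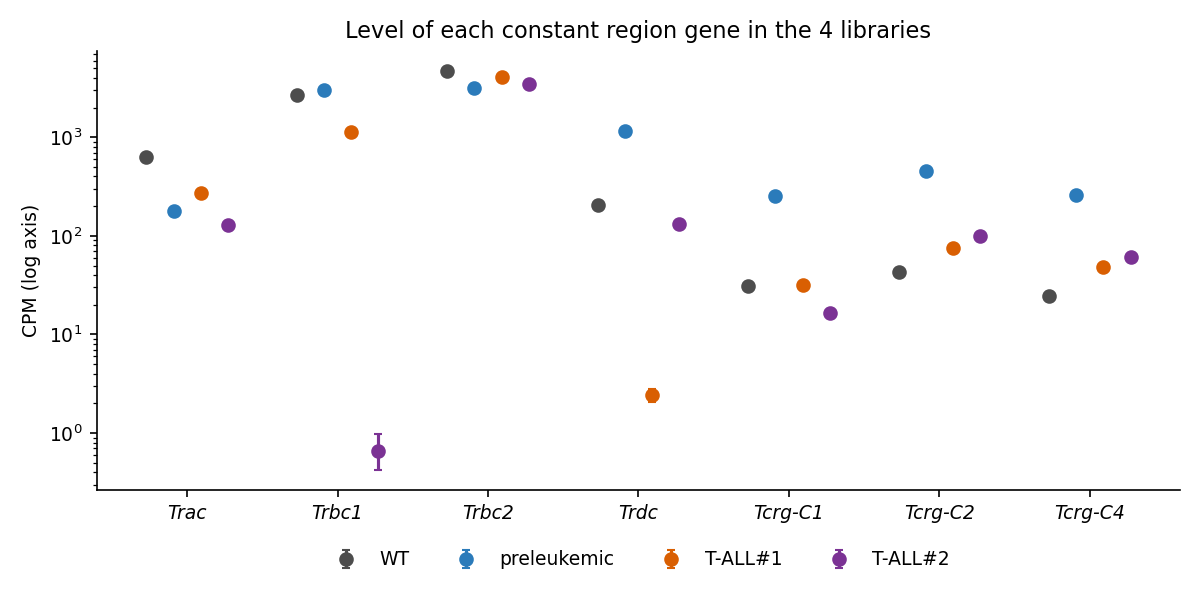
Level of the 7 constant region genes (x axis) in CPM on a log axis, 1 point per library, with exact Poisson 95% intervals that are mostly smaller than the points. Trbc1 in T-ALL#2 (0.662 CPM) and Trdc in T-ALL#1 (2.40 CPM) lie far below the same gene in the other libraries, and the preleukemic library has the highest point of Trdc and of each gamma gene.

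Each leukemia held almost no transcripts of 1 constant region gene, and not of the same one. Trdc in T-ALL#1 had 170 UMIs in 24 cells, or 2.40 CPM (2.06 to 2.79), which was 478-fold below the preleukemic level (411 to 559). T-ALL#2 had Trdc at 131 CPM (127 to 135), 8.79-fold below the preleukemic level. Trbc1 in T-ALL#2 had 24 UMIs in 12 cells with at most 5 UMIs in a cell, or 0.662 CPM (0.424 to 0.985), 4523-fold below the preleukemic library (3039 to 7059). T-ALL#1 had Trbc1 at 1121 CPM (1113 to 1128), 2.67-fold below it. Between the leukemias, Trbc1 was 1692-fold higher and Trdc 54.4-fold lower in T-ALL#1. With the mean over cells the log2 ratio of Trdc in T-ALL#1 was -7.79 to the preleukemic library, in place of -8.90, and -4.60 to T-ALL#2, in place of -5.77. Both tumors lay below the preleukemic library in CPM of both genes. They differed from each other by so much that no mean of the leukemic group is given.

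The other genes were nearer to each other in the leukemias. Each gamma gene was lower in the leukemias, relative to the preleukemic library, by 8.02-fold and 15.5-fold for Tcrg-C1, 6.00-fold and 4.50-fold for Tcrg-C2 and 5.36-fold and 4.21-fold for Tcrg-C4, T-ALL#1 being named first. Trbc2 was at 4118 and 3491 CPM, and Trac at 275 and 130 CPM, a 2.12-fold difference between the tumors. In T-ALL#1 against the preleukemic library 5 of the 7 genes were at least 2-fold lower and 0 higher, where 11.8% and 4.68% of all 8361 genes were. In T-ALL#2 the counts were also 5 lower and 0 higher, where 27.1% and 3.96% of 8250 genes were. Between T-ALL#1 and T-ALL#2, 2 genes were higher and 1 was lower, where 7.97% and 1.35% of 7627 genes were. The T-ALL#2 comparison starts from a median log2 ratio of -0.48 over all genes (-0.15 for T-ALL#1), and factors from the trimmed mean of M-values (TMM) shifted the log2 ratios to the preleukemic library by 0.50 for T-ALL#2 and 0.24 for T-ALL#1. With them, Trac in T-ALL#2 went from -0.46 to 0.04 against the preleukemic library, and Trac between the tumors was under the 2-fold limit (log2 ratio 0.82 in place of 1.08), and the sign of Trbc2 between them turned (-0.03 in place of 0.24).

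Ordered by summed CPM, Trac was highest in WT, then in T-ALL#1, the preleukemic library and T-ALL#2, the last pair changing places with TMM factors (158 and 163 CPM). Trbc1 was highest in the preleukemic library, then in WT, T-ALL#1 and T-ALL#2. Trdc was highest in the preleukemic library and lowest in T-ALL#1, and the order of the other two turned with the measure, with WT above T-ALL#2 in summed CPM (206 and 131) and below it in the mean over cells (94.96 and 141 CPM). Trbc2 was lowest in the preleukemic library and highest in WT, but with TMM factors WT (4058 CPM) was below both T-ALL#1 (4296 CPM) and T-ALL#2 (4380.3 CPM). Tcrg-C2 and Tcrg-C4 followed the order preleukemic, T-ALL#2, T-ALL#1, WT. The counting intervals of neighbours overlapped only for Tcrg-C1 between T-ALL#1 (31.5 CPM, 30.2 to 32.8) and WT (30.9 CPM, 28.7 to 33.2). The ratio of Trac to Trdc UMIs was 3.09 for WT, 0.155 for the preleukemic thymus, 114 for T-ALL#1 and 0.991 for T-ALL#2. Tcrg-C3, the gamma gene left out of the list, had 10 UMIs in WT, 132 in the preleukemic library and 0 in either leukemia.

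Shares of cells gave the order of the summed CPM for Trac, but put WT below T-ALL#2 for Trdc. For Trbc1 they put T-ALL#1 highest, where its summed CPM was below that of WT and the preleukemic library. At 2000 UMIs per cell, Trac was detected in 67.0% of WT cells (exact binomial 95% interval 65.3 to 68.6), 28.5% of preleukemic cells (27.3 to 29.7), 39.6% of cells in T-ALL#1 and 24.2% in T-ALL#2. Trdc was detected in 10.5%, 67.6%, 0.317% and 22.9% of cells in that order. At least 1 gamma gene was detected in 3.72%, 55.3%, 13.5% and 24.6% of cells. Trbc2 was found in nearly every cell, between 96.1% and 99.1%. Trbc1 was found in 61.8%, 70.6% and 84.1% of cells, and in 0.101% of T-ALL#2 cells (2 of 1975).

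Droplets also take up free RNA, and it was looked for where it could be. In T-ALL#2, 1187978 barcodes with fewer than 100 UMIs held 1814232 UMIs, with Trac at 80.5 CPM, Trdc at 113 CPM, Trbc2 at 2539 CPM and Tcrg-C2 at 70.6 CPM, and 0 UMIs of Trbc1. Levels in the cells of T-ALL#2 were 1.11-fold (Tcrg-C4) to 1.61-fold (Trac) of those in these barcodes, with Trbc1 left out. CPM gives the make-up of the free RNA and not its amount per droplet. The part of free RNA in the cells was therefore not measured by these ratios. Cells with at least 3 B cell or at least 3 myeloid markers, which should lack these genes, numbered 9 for WT, 31 for the preleukemic thymus, 16 for T-ALL#1 and 14 for T-ALL#2. At 2000 UMIs, Trdc was detected in 0 of 7, 6 of 28, 0 of 14 and 0 of 14 of them, and Trbc2 in 3, 15, 5 and 6. Of the cells in these sets, 1, 9, 3 and 6 held Cd3e, a T-cell gene, so they are not free of T-cell RNA. Median depth of these cells was 11473, 4954, 4303 and 9132 UMIs, against 3800.5, 4888, 8742 and 17581 for all cells. In T-ALL#2, at 2000 UMIs, 0 of 14 such cells held Trac or Trdc, with an exact upper bound of 23.2%, and without thinning 5 of 14 held Trac and 5 of 14 held Trdc, at 79.7 and 64.8 CPM. The thinned shares of all T-ALL#2 cells, 24.2% and 22.9%, lie next to that bound, so a share above background could not be shown for them at this number of cells.

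Joint detection of Trac and Trdc was compared with the product of their shares, which is what cells would show if detection of one said nothing about the other. The interval of this ratio covers the joint count and takes the product as fixed. The ratio cannot exceed 1 divided by the larger of both shares, so its upper limit differs between libraries. In WT, 115 of 3229 cells held both, against 227 by the product, a ratio of 0.506 (0.419 to 0.606). In the preleukemic library 932 of 5226 cells held both, against 1006, a ratio of 0.926 (0.873 to 0.982). In T-ALL#2 the joint count was 126 of 1975 cells, against 110, a ratio of 1.15 (0.962 to 1.36). In T-ALL#1, with few Trdc cells, 6 held both, against 7.13. In WT, 63.4% of cells held Trac without Trdc, 6.94% Trdc without Trac and 3.56% both, and in the preleukemic library these shares were 10.6%, 49.8% and 17.8%. The ratio below 1 in WT was lower in cells that lacked Il2ra, Cd4 and Cd8a (0.275, 0.147 to 0.468) and in cells with Cd8a alone (0.384, 0.259 to 0.547) than in cells with Cd4 and Cd8a (0.797, 0.606 to 1.03) or Cd4 alone (0.986, 0.555 to 1.61). Without thinning it was 0.880 in WT, and with detection at 2 UMIs it was 0.203.

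Gamma genes went with Trdc and against Trac in WT. There, Trdc and Tcrg-C2 were found together in 34 cells, against 8.19 by the product (ratio 4.15, 2.88 to 5.79), and Trac and Tcrg-C2 in 15, against 52.3 (0.287, 0.161 to 0.473). In the preleukemic library the same ratios were 1.14 (1.10 to 1.19) and 0.680 (0.618 to 0.746). In T-ALL#2 they were 1.14 (0.904 to 1.42) and 0.869 (0.667 to 1.11), and both intervals held 1, while Trdc with Tcrg-C4 gave 1.36 (1.04 to 1.73). In T-ALL#1 they were 2.86 (0.778 to 7.31), on 4 cells, and 1.05 (0.906 to 1.21). Trdc with Tcrg-C4 gave 9.04 (4.14 to 17.2) there, on 9 cells. The gamma genes were found with one another more often than by the product in WT, 22.2-fold for Tcrg-C1 with Tcrg-C2 on 30 cells, and 1.69-fold in the preleukemic library on 1039 cells. For this pair T-ALL#1 gave 4.14-fold (3.28 to 5.15) on 79 cells. T-ALL#2 gave 1.57-fold on 12 cells, with an interval that held 1 (0.813 to 2.74). Tcrg-C4, which shared no window with Tcrg-C2, gave 22.8-fold in WT and 1.70-fold in the preleukemic library with it. Trdc was in 10.5% of WT and 67.6% of preleukemic cells, and Tcrg-C2 in 2.42% and 40.9%. The upper limit of the ratios is therefore much lower in the preleukemic library. The part of this limit in the lower ratios there was not tested.

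**Figure D2:**
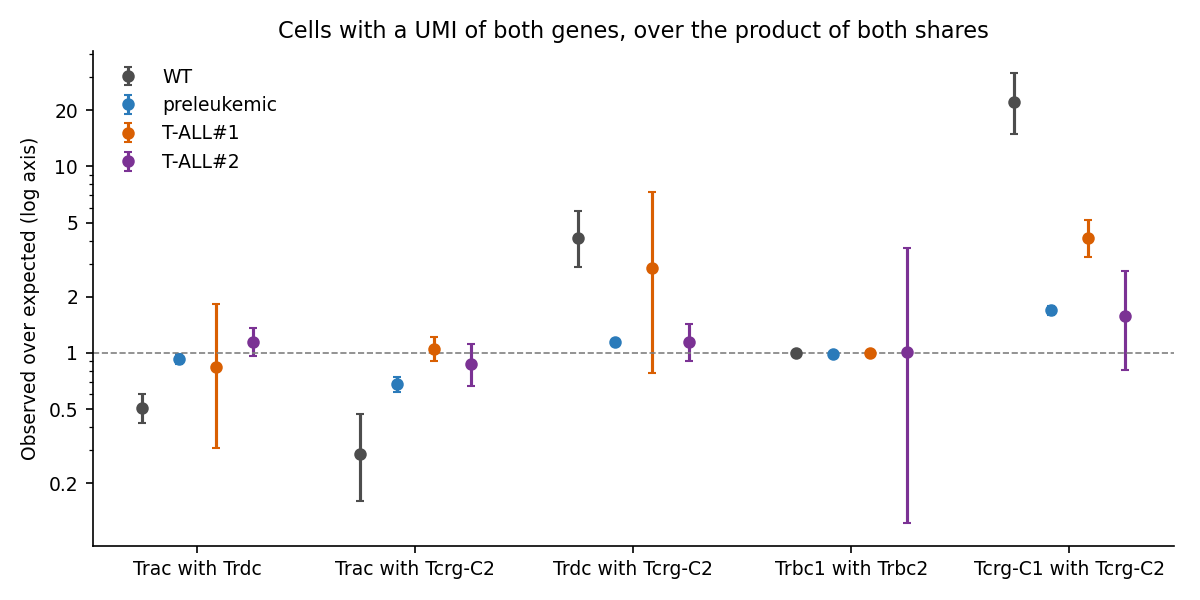
Cells with a UMI of both genes of a pair, divided by the number given by the product of the shares (log axis), 1 point per library, cells thinned to 2000 UMIs, with 95% intervals of the joint count. Trac with Trdc lies at 0.506 in WT and between 0.841 and 1.15 in the other libraries, and Trbc1 with Trbc2 lies at 1 in all 4, with a wide interval in T-ALL#2, where 2 cells held both.

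Trbc1 and Trbc2 were found together as often as their shares give, at ratios of 1.00 (0.972 to 1.03), 0.990 (0.971 to 1.01), 0.999 (0.987 to 1.01) and 1.01 in the order of the libraries. Since nearly every cell held Trbc2, detection could hardly show a choice between them, and the share of Trbc1 among the Trbc1 and Trbc2 UMIs of a cell was used instead, in cells with at least 5 such UMIs. In WT, 40.9% of 3848 cells (39.4 to 42.5) had at least 90% of these UMIs from Trbc2, and 0.468% had at least 90% from Trbc1. The remaining 58.6% were mixed, and Trbc1 held the majority in 23.7% of cells. In the preleukemic library, 34.6% of 5408 cells (33.4 to 35.9) were Trbc2-dominated, 1.98% Trbc1-dominated, and Trbc1 held the majority in 50.4%. Cells with next to no Trbc2 were thus scarce in both libraries, and cells with next to no Trbc1 were not. Counted as cells with no Trbc1 UMI at all, the Trbc2-dominated share was 28.4% in WT and 19.8% in the preleukemic library. On cells thinned to 2000 UMIs the Trbc1-dominated share was 0.880% in WT and 5.78% in the preleukemic library, and 1.27% in T-ALL#1 in place of 0.244%.

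The leukemias were far apart in this measure. In T-ALL#2, 1964 of 1965 cells were Trbc2-dominated, and 99.4% had no Trbc1 UMI at all. In T-ALL#1, 81.0% of 5729 cells were mixed, and the Trbc1 share fell into a narrow band, with a median of 15.9% and quartiles of 11.3% and 21.9%. A second, smaller group of T-ALL#1 cells lay at the other end, with 552 cells (9.64%, 8.88 to 10.4) above 50%. Few cells lay between them, 17 with a share of 45 to 50% and 13 with 50 to 55%. Of the T-ALL#1 cells, 18.8% were Trbc2-dominated, a share that was 31.6% on cells thinned to 2000 UMIs and 1.34% when no Trbc1 UMI was allowed, so the line between mixed and Trbc2-dominated cells in this library moved with depth and definition.

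**Figure D3:**
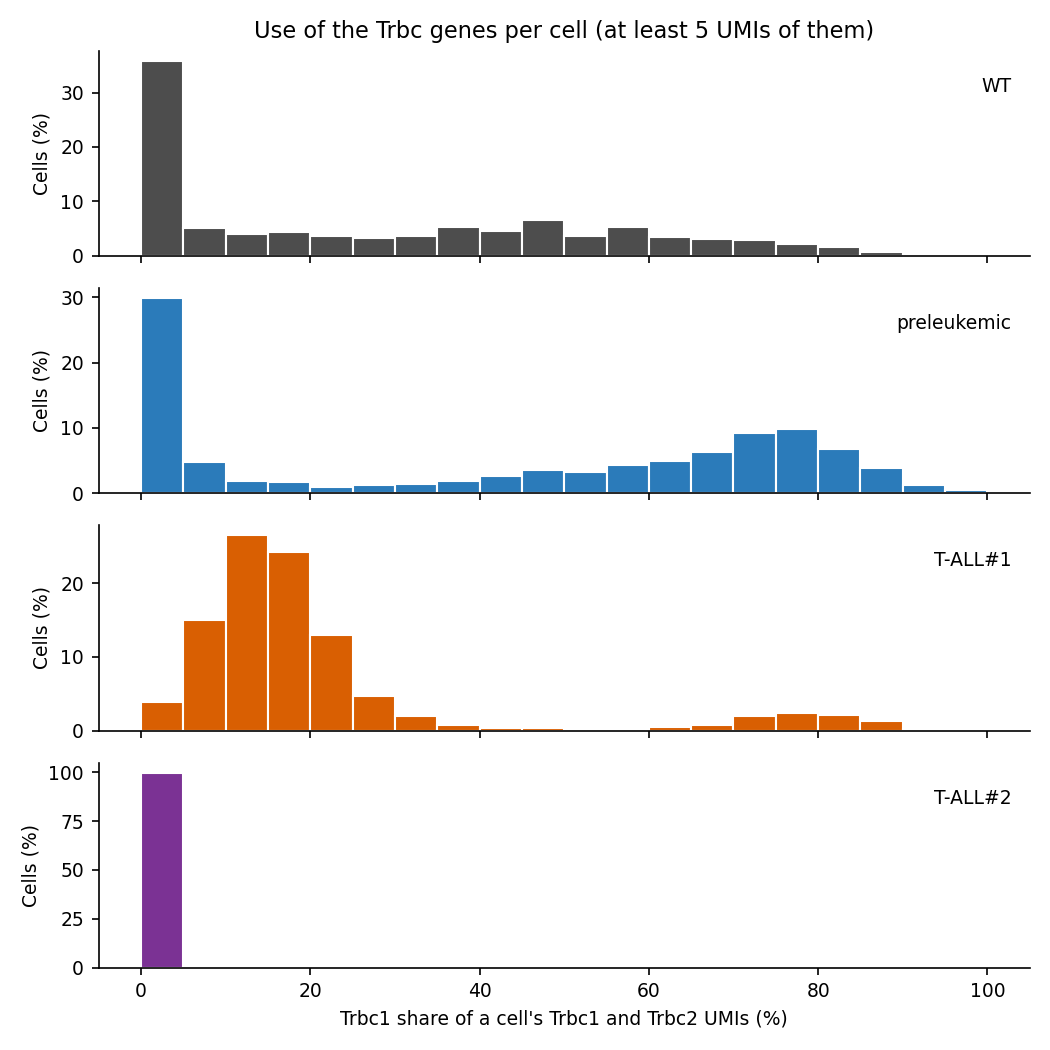
Distribution over cells of the Trbc1 share among a cell's Trbc1 and Trbc2 UMIs, in bins of 5 percentage points, for cells with at least 5 such UMIs (y axis, percent of these cells, a panel per library). T-ALL#2 is a single bar at 0 to 5%, and T-ALL#1 has a main hump around its median of 15.9% and a small hump at 65 to 90%.

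The Trbc1-majority cells of T-ALL#1 also differed in genes that the split did not use. The split at 50% is a range on 1 measure and does not name a cell type, and these are cells of 1 animal, so no test is given. They held Trac at 549 CPM (535 to 564), against 229 CPM (224 to 233) in the mixed cells with a Trbc2 majority. Tcrg-C1 was at 4.81 CPM (3.52 to 6.42) in them, against 34.9 CPM, and Tcrg-C4 at 13.1 CPM against 53.4 CPM. Tcrg-C2 was nearer, at 55.2 CPM against 79.1 CPM, and was detected in 6.90% against 7.90% of cells at 2000 UMIs. Tal1 stood at 234 CPM (224 to 244), against 41.3 CPM (39.5 to 43.1), and was detected in 37.0% of them at 2000 UMIs, against 10.3%. Ptcra, which codes for the pre-TCR alpha chain, was at 8.78 CPM against 196 CPM, Cd8a at 49.5 CPM against 375 CPM and Cd4 at 12.3 CPM against 73.7 CPM. Their median depth was 15290 UMIs, against 8553, and the part of depth in these values was not tested. The Trbc2-dominated cells of T-ALL#1 lay close to the mixed cells, with Trac at 249 CPM, Tal1 at 46.9 CPM and Ptcra at 240 CPM.

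Beta variable segments also differed between these classes, with some in common. In the mixed cells of T-ALL#1, Trbv2 gave 67.9% and Trbv19 31.5% of 5722 Trbv UMIs, and in the Trbc1-majority cells Trbv24 led with 55.5% of 373 Trbv UMIs while Trbv2 gave 28.7% and Trbv19 3.75%. Joint counts of segments were read over all kept cells without thinning, while the joint ratios above were mainly on thinned cells. The part of depth in these counts was not tested. Trbv2 and Trbv19 were found in the same cell in 1044 T-ALL#1 cells, where the product of their shares gives 874. In the preleukemic library the 2 segments lay apart. Trbv19 gave 81.5% of the Trbv UMIs of Trbc1-majority cells and 1.03% of those of Trbc2-dominated cells, in which Trbv2 gave 62.4%, and 11 cells held both, against 102 by the product. In T-ALL#2, Trbv5 (49.2%) and Trbv26 (40.7%) gave most of 646 Trbv UMIs, and 2 cells held both, against 22.2. In WT the leading segment, Trbv2, gave 36.3% of the Trbv UMIs and between 32.4% and 38.8% in each class of Trbc use. Trbv24 was named as the leading segment of its class, and the other segments were among the 2 with most UMIs in each library. A 3′ library reads few variable segments, with any Trbv UMI in 24.1% to 65.4% of cells.

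The few cells with the scarce gene of each leukemia were looked at for what else they held. Of the 24 Trdc cells of T-ALL#1, 17 held Tal1 (70.8%, against 39.7% of the other cells) and 0 held Ptcra (against 54.9%), at a median depth of 4828 UMIs against 8814. They were too few to be described further. Of the 12 Trbc1 cells of T-ALL#2, 11 held Tal1 (91.7%, against 90.8%).

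Cells were then divided by detection of Il2ra, Cd4 and Cd8a at 2000 UMIs, which follows thymocyte maturation only roughly, since a transcript that is present can be missed. In WT, Tcrg-C2 was detected in 47.4% of 57 cells with Il2ra and neither coreceptor, 4.89% of 818 cells with none of the 3 genes, 0.639% of 783 cells with Cd8a alone and 0.293% of 1025 cells with Cd4 and Cd8a. The preleukemic library showed the same order over these gates at higher shares, 69.5% of 220, 45.8% of 3988, 16.0% of 920 and 7.58% of 66 cells. The shares were nearer to each other in T-ALL#2, at 17.6% of 408, 14.9% of 1077, 12.8% of 399 and 6.06% of 33 cells. In T-ALL#1 they ran from 9.86% of 517 and 14.6% of 1909 cells to 4.18% of 1961 and 1.13% of 975 cells. In cells with Cd4 alone, Tcrg-C2 was detected in 0.549% of 546 in WT and 18.75% of 32 in the preleukemic library. The same gate held it in 5.99% of 317 cells in T-ALL#1 and 6.90% of 58 in T-ALL#2. These shares lay below those of Cd8a alone in WT and T-ALL#2, and above them in the preleukemic library and T-ALL#1. Tcrg-C1 and Tcrg-C4 were also highest in the Il2ra-detected cells of WT and the preleukemic library.

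Trac moved the other way in WT and the preleukemic library. It was detected in 21.1% of Il2ra-detected WT cells (11.4 to 33.9) and 80.04% of WT cells with Cd4 alone (76.4 to 83.3). In the preleukemic library it was detected in 6.36% of Il2ra-detected cells (3.52 to 10.4) and in 33 of 66 cells with Cd4 and Cd8a. In T-ALL#1 the 5 gates lay between 33.5% and 45.5%, and in T-ALL#2 between 21.3% and 48.3%, the highest on 58 cells with Cd4 alone. Trdc was detected in 40.4% of Il2ra-detected WT cells and 3.48% of WT cells with Cd4 alone, but in between 53.0% and 71.5% of preleukemic cells in every gate. In T-ALL#1 it was at or below 0.838% in every gate, and in T-ALL#2 between 13.8% and 27.1%.

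**Figure D4:**
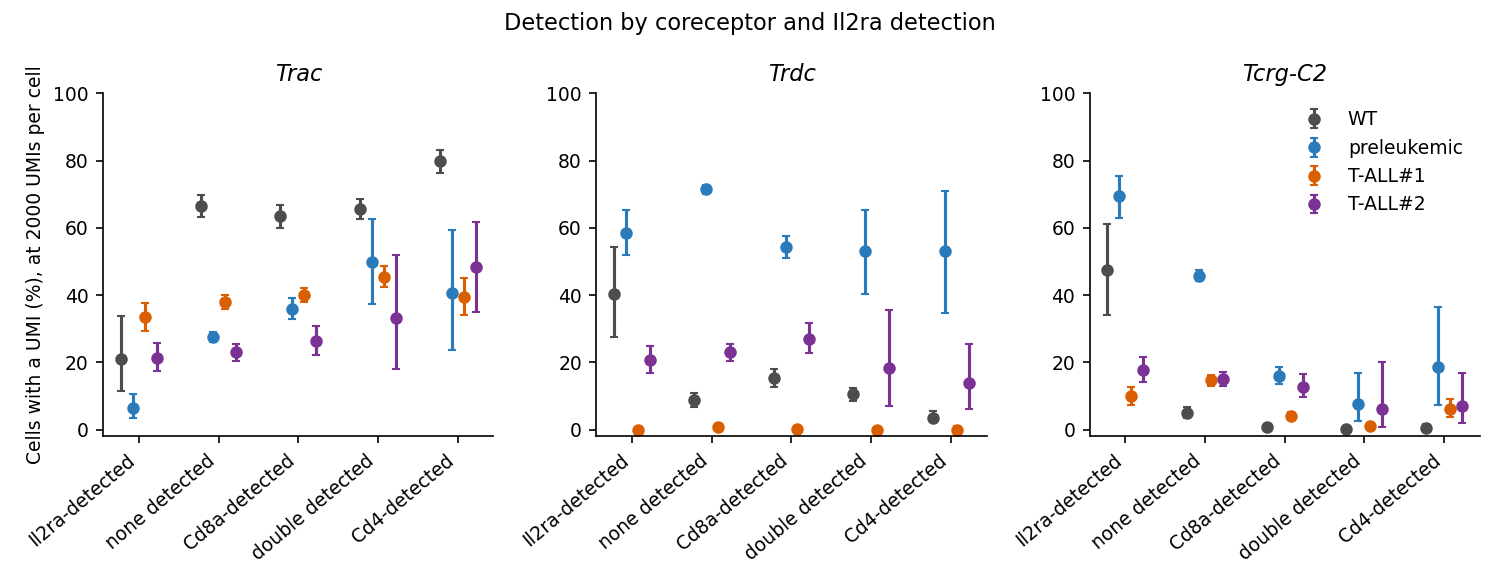
Share of cells with a UMI of Trac, Trdc and Tcrg-C2 (y axis, percent, cells thinned to 2000 UMIs) in 5 gates of Il2ra, Cd4 and Cd8a detection (x axis), 1 point per library with exact 95% binomial intervals. Tcrg-C2 falls from 47.4% in Il2ra-detected WT cells to 0.293% in WT cells with both coreceptors, and Trdc stays above 50% in all 5 gates of the preleukemic library.

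The difference between gates can be tested over the 4 animals, since each gives a sum of UMIs for both gates. Il2ra-detected cells without coreceptors were compared with Cd8a-detected cells without Il2ra by the quasi-likelihood test of edgeR, with the library as a block. The Il2ra-detected cells were deeper in each library, with median UMIs of 9010 against 3753 in WT and 8696 against 5158 in the preleukemic library. In T-ALL#1 the medians were 11865 against 7035, and in T-ALL#2 19797 against 11793. Gate and depth thus differ together, and sums of thinned UMIs are among the alternatives given below. None of the 7 genes passed an adjusted p of 0.05 (0 of 7), where 1 gene of 13362 was higher in Il2ra-detected cells (0.00748%) and 4 were lower (0.0299%). Trbc1 and Trbc2 had an unadjusted p under 0.05, as did 2182 of all genes, and DESeq2 also called 0 of the 7. The 5 called genes, named after their values were seen, were Il7r, which was higher in Il2ra-detected cells, and Ccl5, Cd52, Chrna9 and Tdrp, which were lower. Il2ra and Cd8a themselves, which set the gates, did not pass (adjusted p = 0.463 and 0.294 by edgeR).

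The gamma genes had the largest differences and the largest spread. Tcrg-C2 was at 763 CPM in Il2ra-detected and 6.49 CPM in Cd8a-detected cells of WT, at 845 and 143 CPM in the preleukemic library, at 104 and 37.0 CPM in T-ALL#1 and at 111 and 79.8 CPM in T-ALL#2. It was higher in the Il2ra-detected cells in 4 of 4 libraries, with log2 differences of 6.88, 2.56, 1.49 and 0.48, and the fitted log2 difference was 2.53 (SE 1.39, adjusted p = 0.478 by edgeR). Tcrg-C1 (fitted log2 difference 2.28) and Tcrg-C4 (2.30) had the same sign in 4 of 4 libraries, but in T-ALL#2 their intervals included 0. The difference thus ran from 175-fold in WT to 1.07-fold in T-ALL#2 for Tcrg-C1, and whether it differs between disease stages was not tested.

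Trac was lower in Il2ra-detected cells in 4 of 4 libraries. It stood at 106 against 574 CPM in WT, 28.6 against 252 CPM in the preleukemic library, 231 against 297 CPM in T-ALL#1 and 108 against 172 CPM in T-ALL#2. The fitted log2 difference was -1.51 (SE 0.62, adjusted p = 0.362 by edgeR). Both beta genes were also lower in 4 of 4 libraries, with fitted log2 differences of -0.68 (SE 0.20, adjusted p = 0.187) for Trbc1 and -0.58 (SE 0.22, adjusted p = 0.278) for Trbc2 by edgeR. For Trbc1 in T-ALL#2 this rests on 1 against 3 UMIs. Trdc had opposite signs, being higher in Il2ra-detected cells of WT (361 against 260 CPM) and lower in those of the preleukemic library (639 against 791 CPM) and T-ALL#2 (119 against 157 CPM).

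**Figure D5:**
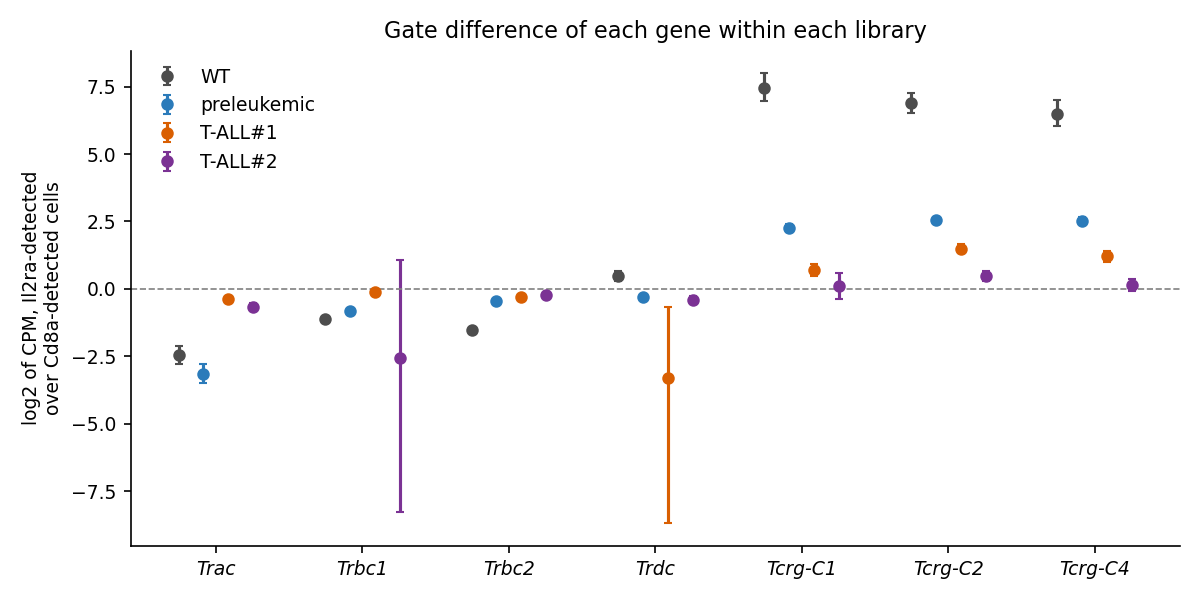
log2 of the CPM in Il2ra-detected cells over that in Cd8a-detected cells (y axis) for each gene (x axis), 1 point per library, with exact 95% intervals of the counts. The gamma genes lie above 0 in all 4 libraries and fall from 7.45 to 0.09 for Tcrg-C1 between WT and T-ALL#2, and Trac lies below 0 in all 4.

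Genes that work with the receptor chains were read in the same fit, and 0 of 5 CD3 and pre-TCR genes, 0 of 7 proximal signaling genes, 0 of 3 recombination genes and 0 of 10 genes of the gamma-delta lineage passed. Of the CD3 subunits, Cd3d, Cd3e and Cd3g had log2 differences of 0.03, -0.11 and 0.24, and Cd247 of -0.40 (adjusted p = 0.158). Ptcra was at 397 against 36.4 CPM in Il2ra-detected and Cd8a-detected cells of WT and at 189 against 206 CPM in T-ALL#1 (log2 difference 1.12, adjusted p = 0.623). Of the recombination genes, Rag1 and Rag2, which cut the segments, had log2 differences of -1.003 and -1.43 (adjusted p = 0.285 and 0.131), and Dntt, which adds bases at the joints, of 0.09. Among the signaling genes, Cd5, an inhibitory surface receptor, had a log2 difference of -0.79, and Themis, which tunes TCR signaling in thymocytes, of -0.76. In the gamma-delta list, the kinase Blk had a log2 difference of 1.72 and the transcription factor Maf of 1.59. The median log2 difference was 0.03, -0.32, -1.003 and 1.18 in the 4 lists, against -0.0029 over all genes tested.

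Likeness was read as the correlation of log2(CPM + 1) over the 20 sums of 4 libraries and 5 gates, which share animals and depth, among 5835 genes. Trac was most like Cd28, a costimulatory receptor (r = 0.909), Zfp36 (0.885) and Camk1d (0.864). Trbc1 was most like Tsix (0.989), Xist (0.983) and Clptm1l (0.960), and Xist is near 0 in T-ALL#2 (0.0828 CPM), the library that also lacks Trbc1. T-ALL#2 is also the library with Y-linked UMIs (122 CPM), so the likeness of Trbc1 to Xist and Tsix cannot be told apart from the sex of that animal. Trbc2 was most like Atl2 (0.922), Pycard (0.906) and Klf13 (0.905), and Trdc most like Gm10076 (0.931), Dstn (0.928) and Selenop (0.924). Tcrg-C1 was most like Pdrg1 (0.874), Drap1 (0.864) and Creg1 (0.842), while Tcrg-C2 and Tcrg-C4 shared Npm3 (0.877 and 0.858), Dtnbp1 and Ssbp1. Between members, Tcrg-C2 and Tcrg-C4 ran together most closely (0.985), and both ran against Trbc2 (-0.86 and -0.87) and Trac (-0.79 and -0.79).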

How the data were processed

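RNA was counted in single viable thymocytes of 4 mice with the 10x Genomics 3′ assay. The deposited files hold counts, that is raw UMIs per gene and barcode, which the authors made with Cell Ranger, version 3.0.2 for WT, the preleukemic library and T-ALL#1 and version 4 for T-ALL#2, per the file headers, on build mm10 per the submitters' processing notes. The first 3 matrices hold called cells, and that of T-ALL#2 holds all 1791965 barcodes. There, barcodes with at least 1/10 of the 99th percentile of the 10000 largest were called, which set 3416 UMIs, so cell calling and software cannot be told apart from that animal. The chemistry of each library is not given in the sources used here. Of 31053 identifiers, 30934 were found in GENCODE M21. Pairs of libraries shared 0 to 9 barcodes.

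Groups follow the sample titles. The genes, lists and tests were chosen with earlier results of these data known. CPM values are UMIs summed over kept cells and scaled to the same total in each library. Intervals are exact Poisson (ratios: conditional binomial) and Clopper-Pearson intervals at 95%, and cover counting error only. No doublet caller was run on the sorted singlets, and an upper limit of the mean plus 3 SD of genes per cell was an alternative. Genes at least 2-fold apart with at least 10 CPM in 1 of 2 libraries were called. Thinning drew UMIs without replacement. UMI sums of 8 gates, with at least 10 UMIs in all, were tested with edgeR 4.0.16 in R 4.3.3 (TMM, robust) and adjusted by the Benjamini-Hochberg method, with DESeq2 1.42.0 as an alternative. The residual degrees of freedom were 3, and the common biological coefficient of variation was 0.168. The test was tried on simulated data in which each gate effect was the same in all libraries. The gate effects of the gamma genes differed between libraries, so that trial does not give the power of the test for them. The library was a block because both sums of a library come from 1 animal. The 4 animals differ in genotype and disease, so the p-values measure whether a gate difference is common to them. Other alternatives changed thinning, detection, gates, filters and cell limits. The genes named were the 7 members, all CD3, pre-TCR and recombination genes, the 3 with the largest change in each other list, and the 3 most alike per member. Of these, 2 genes of the other lists are not reported here. Python 3.11.15, numpy 2.4.6, scipy 1.17.1 and matplotlib 3.10.9 were used.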

Additional observations from a re-analysis of the deposited data

Results flagged for a closer look

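Trdc had gate differences of opposite sign in different groups. Its log2 difference of Il2ra-detected minus Cd8a-detected cells was 0.47 (95% interval of the counts 0.28 to 0.65) in WT. It was -0.31 (-0.39 to -0.23) for preleukemic cells, -3.32 (-8.69 to -0.68) for T-ALL#1 and -0.40 (-0.54 to -0.25) for T-ALL#2. The value of T-ALL#1 rests on 1 against 21 UMIs. The difference between the groups was not tested, since WT and preleukemic mice are 1 each.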

How the results depend on the processing

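No member passed the gate test under any of the 13 alternatives (0 of 7 each). The number of all genes called, 5, was 0 without the replicate block, 292 with DESeq2, 1 with filterByExpr, 9 with genes of at least 1 UMI, 8 with gates on unthinned counts, 169 with sums of thinned UMIs and 81 with Cd8b1 added to the gates. Leaving out 1 library gave 0 (without the preleukemic library) to 418 (without WT), with 9 without T-ALL#1 and 2 without T-ALL#2. The sign of Trdc turned with sums of thinned UMIs (log2 difference 0.13). The signs of the other members held under every alternative. The cause of these changes was not tested.

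The counts of members past the 2-fold limit stayed within 1.5 times under the 6 alternatives of each of 4 comparisons. The joint ratio of Trac with Trdc in WT was 0.880 without thinning and 0.203 with detection at 2 UMIs. At 2 UMIs it was 0.814 for preleukemic cells, 0 for T-ALL#1 and 2.28 for T-ALL#2, the last on 10 cells. The joint ratio of Trbc1 with Trbc2 was 0.961 and 0.985 in the preleukemic library and T-ALL#1 with cells thinned to 1000 UMIs, and 0.955 and 0.976 with detection at 2 UMIs. The share of Trbc2-dominated cells, counted as cells with no Trbc1 UMI, was 28.4% for WT, 19.8% for preleukemic cells, 1.34% for T-ALL#1 and 99.4% for T-ALL#2. On thinned cells it was 32.5% for preleukemic cells and 31.6% for T-ALL#1, against 34.6% and 18.8% without thinning. With at least 10 Trbc UMIs it was 100% in T-ALL#2. Of 140 library levels recomputed under other settings, 63 moved out of their counting interval, as did 58 of 140 recomputed log2 ratios and 84 of 147 recomputed shares of cells. Without thinning, the share of cells with Trac was 76.4% in WT, 73.0% in T-ALL#1 and 73.7% in T-ALL#2, so shares depend on depth. A single animal per library limits every comparison between libraries.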

Other observations

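Variable segments of the other chains were read once over all kept cells. In WT, 77 of 128 Trav segments had a UMI and the leading one gave 6.02% of 2144 Trav UMIs. In T-ALL#1, Trdv1 gave 95 of 97 Trdv UMIs, in a library with 170 Trdc UMIs. Trgv2 gave 70.8% to 75.9% of the gamma variable UMIs in each library. Tcrg-V1 was second in each library, with 26.4% in T-ALL#1 and 26.6% in T-ALL#2 against 13.0% in WT and 10.8% in the preleukemic library.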
